A study of Homo sapiens with 2 samples.

Results

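The carcinoembryonic antigen-related cell adhesion molecules CEACAM1, CEACAM5, CEACAM6 and CEACAM7 and the mucins MUC1, MUC4, MUC13, MUC16, MUC20 and MUC5AC were followed in HCC4006ER and HCC4006 cells. These 10 genes, of 19775 genes with a probe set of their own, were picked by name because the falls of CEACAM6 and MUC1 between the same 2 arrays were among the largest. The signals that chose them are therefore those reported below, and their differences are a description. HCC4006 is a non-small cell lung cancer (NSCLC) line that carries an exon 19 deletion of EGFR and is sensitive to the EGFR inhibitor erlotinib. HCC4006ER carries the same deletion, was derived from it by chronic exposure to rising erlotinib, and is labelled resistant, with an epithelial-mesenchymal transition (EMT) phenotype against a wildtype phenotype for HCC4006. Both lines were grown for 48 hours in serum-containing medium and received no further treatment, and the label names HCC4006ER itself, not one of the single cell clones that the study also derived from it. Separate RNA preparations of a line were combined in equal parts for 1 Affymetrix HG-U133 array, so no value has a replicate, no test was possible, and differences between the lines and between the 2 hybridizations cannot be told apart.

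CEACAMs are members of the immunoglobulin superfamily at the cell surface. CEACAM1 spans the membrane and signals through a cytoplasmic tail, whereas CEACAM5 (carcinoembryonic antigen), CEACAM6 and CEACAM7 are held in the outer leaflet by a glycosylphosphatidylinositol (GPI) anchor. Membrane mucins carry a long extracellular domain dense in O-linked sugars and form part of the coat on the apical face of airway, gut and glandular epithelium, and in carcinomas MUC1 often loses its apical restriction. MUC5AC differs from the other mucins here in that it is secreted and forms the gel of airway mucus.

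The promoters of the 3 genes that fell are shown, with that of CEACAM5, the neighbour of CEACAM6, because the CEACAM promoters resemble one another. Each runs 5′ to 3′ on the gene's own strand, from 250 bases before the start site to 50 after it, and was taken from RefSeq on GRCh38.p14. Capitals mark the E-box hexamers CACCTG (the complement of CAGGTG, the core bound by ZEB and SNAI repressors) and CACGTG. The windows are chr19:41755280-41755579 (plus strand) for CEACAM6, chr1:155192866-155193165 (minus strand) for MUC1, chr19:42528432-42528731 (minus strand) for CEACAM1 and chr19:41708376-41708675 (plus strand) for CEACAM5.
CEACAM6: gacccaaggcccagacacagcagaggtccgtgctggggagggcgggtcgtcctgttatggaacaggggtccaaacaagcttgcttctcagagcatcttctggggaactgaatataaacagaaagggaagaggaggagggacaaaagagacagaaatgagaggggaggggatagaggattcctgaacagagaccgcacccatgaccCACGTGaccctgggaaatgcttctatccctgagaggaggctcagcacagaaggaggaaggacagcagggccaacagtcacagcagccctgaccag
MUC1: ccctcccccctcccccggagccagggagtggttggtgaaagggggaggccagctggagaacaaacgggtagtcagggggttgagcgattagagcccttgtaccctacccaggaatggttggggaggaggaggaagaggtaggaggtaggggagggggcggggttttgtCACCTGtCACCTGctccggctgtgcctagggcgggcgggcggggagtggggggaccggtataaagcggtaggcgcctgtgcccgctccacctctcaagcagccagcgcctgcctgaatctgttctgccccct
CEACAM1: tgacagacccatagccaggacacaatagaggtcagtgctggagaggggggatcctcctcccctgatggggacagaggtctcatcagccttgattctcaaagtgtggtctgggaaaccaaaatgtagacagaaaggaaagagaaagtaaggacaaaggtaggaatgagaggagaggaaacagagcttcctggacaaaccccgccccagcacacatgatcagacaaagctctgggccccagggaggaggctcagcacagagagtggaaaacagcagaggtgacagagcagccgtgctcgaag
CEACAM5: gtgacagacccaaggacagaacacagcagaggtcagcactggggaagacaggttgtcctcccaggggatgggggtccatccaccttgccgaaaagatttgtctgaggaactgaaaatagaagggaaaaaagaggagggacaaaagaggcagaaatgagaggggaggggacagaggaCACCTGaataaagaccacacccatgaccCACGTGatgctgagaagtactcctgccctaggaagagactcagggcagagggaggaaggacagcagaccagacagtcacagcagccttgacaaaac
Aligned end to end, the CEACAM6 promoter was identical to that of CEACAM5 at 74.7% of positions, to that of CEACAM7 at 80.5% and to that of CEACAM1 at 68.2%. MUC1 shared 45.2% to 48.8% of positions with the CEACAM promoters. Searched on both strands, CAGGTG occurred in 20.6% of 35116 promoters of the same length, CACGTG in 7.26%, the GC box GGGCGG in 45.0% and the STAT-type motif TTCNNNGAA in 7.66%. MUC1 held CACCTG at 82 and at 75 bases before the start and GGGCGG at 4 places, 3 of which overlapped one another. CEACAM6 had no CAGGTG on either strand and held CACGTG 45 bases before the start. CEACAM5 held the same CACGTG 46 bases before its start and, in addition, CACCTG 74 bases before it. CEACAM1 held neither E-box, and CEACAM7, which was not above background on either array, held none of the 4 motifs. Of the other mucins, MUC4 held TTCGGAGAA and a GC box, MUC16 held CACCTG just after its start and a GC box, and MUC13 held none. A match describes the letters and not a bound site. MUC20 and MUC5AC were not among the promoters used here.

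Signals are MAS5 values on a linear scale as the authors deposited them, and after trimming 2% of probe sets from either end each array had a mean of 500.1. Medians were 57.7 on the array labelled HCC4006ER and 63.4 on the array labelled HCC4006. A signal was called above background when it passed the 95th percentile of 127 probe sets for smell and bitter taste receptors. These receptors were taken to be mostly unexpressed in these cells, which was not tested. The background level was 91.6 on the array labelled HCC4006ER and 96.2 on the array labelled HCC4006. Where only one array passed, the dim signal was raised to this level and the fold is given as "at least"; where neither passed, no fold is given. The threshold was 1.5-fold. Of 9 markers of lung adenocarcinoma epithelium, 7 were above background on each array, with summed signals of 79002 on the array labelled HCC4006ER and 79967 on the array labelled HCC4006, and the lung lineage factor NKX2-1 was below background on both. Of the mesenchymal markers, the array labelled HCC4006ER had more VIM (1.53-fold), CDH2 (2.05-fold) and FN1 (1.66-fold), whereas ZEB1, at 53.1 there and 42.5 on the array labelled HCC4006, was below background on both and CDH1 had a log2 fold of 0.08. From its microarray the study reported higher ZEB1 and a loss of CDH1 (E-cadherin) and ERBB3 (Her3) mRNA in HCC4006ER. By quantitative RT-PCR it also reported higher ZEB1 and lower CDH1 mRNA. Its blots had more ZEB1 protein and a loss of E-cadherin and Her3 protein, and ZEB1 knockdown raised E-cadherin and restored erlotinib sensitivity. At the gene-level probe sets used here, ZEB1 did not pass background on either array. CDH1, whose loss is a textbook mark of EMT, and ERBB3 (log2 fold 0.12) lay within the threshold. The changes reported from the microarray were thus not seen at these probe sets, and the arrays are named throughout by their labels. The RT-PCR, protein and knockdown results were not examined here.

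CEACAM6 and MUC1 lost nearly all of their signal on the array labelled HCC4006ER, CEACAM1 fell to background, and no gene of the set was higher past the threshold. In RNA of whole cultures, fewer cells that make a transcript and less of it per cell cannot be told apart. Over the 10 genes, 6 were above background, of which 3 were lower past 1.5-fold (CEACAM1, CEACAM6 and MUC1), 0 were higher and 3 were within it (CEACAM5, MUC20 and MUC5AC). Over all 11896 genes above background 11.2% were lower and 7.99% higher past 1.5-fold. Since this contrast chose the genes, nothing is read from the difference between these shares. The median log2 fold of the 6 genes was -1.06, beside -0.04 over all genes. CEACAM7, MUC4, MUC13 and MUC16 were below background on both arrays and have no fold.

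**Figure D1:**
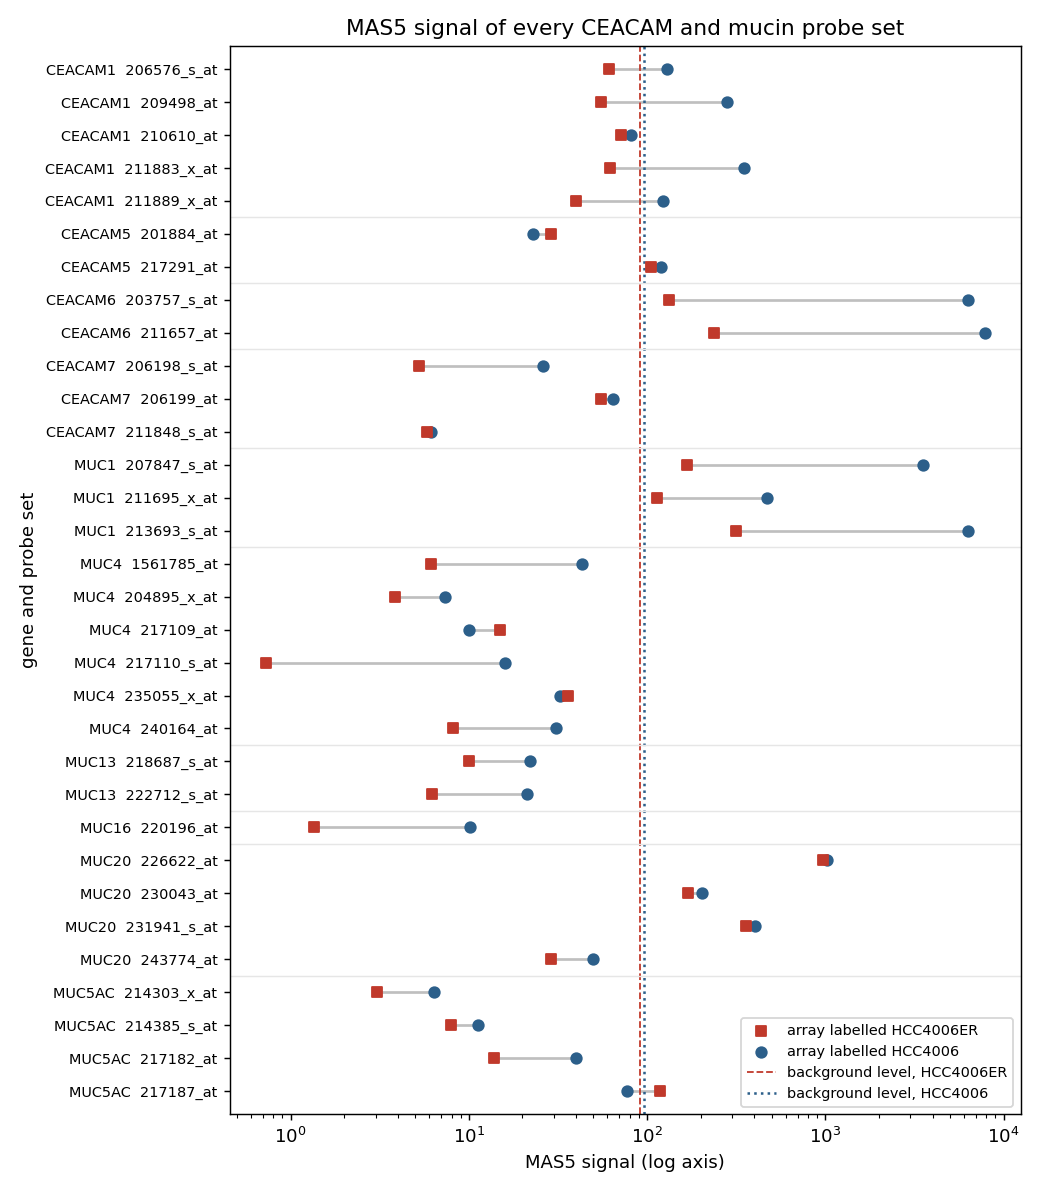
MAS5 signal (log axis) of all 32 probe sets of the 10 genes, with squares for the array labelled HCC4006ER, circles for the array labelled HCC4006 and vertical lines at the background levels of 91.6 (HCC4006ER) and 96.2 (HCC4006). Both CEACAM6 probe sets and all 3 MUC1 probe sets show widely separated points, the points of MUC20 nearly coincide, and 18 probe sets lie left of both lines.

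CEACAM6, a GPI-anchored adhesion molecule overexpressed in many carcinomas, had 2 probe sets. The probe set 211657_at read 236 on the array labelled HCC4006ER and 7826 on the array labelled HCC4006, that is 33.1-fold lower (log2 fold -5.05). The probe set 203757_s_at read 133 on the array labelled HCC4006ER and 6346 on the array labelled HCC4006, 47.8-fold lower (log2 fold -5.58). Both remained above background on the array labelled HCC4006ER, at 3.02% and 2.09% of their signals on the array labelled HCC4006. Ranked by fold, with each bound taken at its stated size, CEACAM6 came first of the genes that were lower. It was ahead of the imprinted gene NDN, which read 61.0 on the array labelled HCC4006ER and 1908 on the array labelled HCC4006, at least 20.8-fold lower.

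CEACAM1, which binds itself and other CEACAMs between cells and carries inhibitory tyrosine motifs in its long form, had 5 probe sets. None was above background on the array labelled HCC4006ER, where they read 39.7 to 71.6, and 4 were above it on the array labelled HCC4006. The gene-level probe set 211883_x_at read 62.4 on the array labelled HCC4006ER and 349 on the array labelled HCC4006, at least 3.81-fold lower. Its suffix _x_ marks probes that may bind other transcripts. With such probe sets left out, the bound on the CEACAM1 log2 fold was -1.61 in place of -1.93. For 209498_at the signals were 55.4 on the array labelled HCC4006ER and 280 on the array labelled HCC4006, at least 3.06-fold lower. The folds of 206576_s_at (61.2 for HCC4006ER, 129 for HCC4006) and 211889_x_at (39.7 for HCC4006ER, 123 for HCC4006) were bounded at 1.41 and 1.35 and did not pass the threshold, because their signals on the array labelled HCC4006 lay close to the background level. The remaining one, 210610_at, was below background on both, at 71.6 for HCC4006ER and 81.1 for HCC4006. Averaged over its probe sets CEACAM1 was at least 1.81-fold lower.

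CEACAM5, the carcinoembryonic antigen used as a serum tumour marker, was barely above background. Its probe set 217291_at read 105 on the array labelled HCC4006ER and 120 on the array labelled HCC4006, a log2 fold of -0.19. The other CEACAM5 probe set, 201884_at, read 28.9 on the array labelled HCC4006ER and 23.0 on the array labelled HCC4006, below background on both. CEACAM7, which is restricted largely to the colon and pancreas in normal tissue, read 5.24 to 55.5 on the array labelled HCC4006ER and 6.11 to 64.2 on the array labelled HCC4006 over 3 probe sets, none of them above background. CEACAM6 was thus the 1 of these 3 GPI-anchored CEACAMs with enough signal on the array labelled HCC4006 for a fall past the threshold to be measured, since a CEACAM5 signal of 120 raised against the level of 91.6 cannot pass it.

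MUC1, the membrane mucin whose cytoplasmic tail is bound by β-catenin and SRC family kinases, had 3 probe sets and all were lower past the threshold. The probe set 213693_s_at read 317 on the array labelled HCC4006ER and 6315 on the array labelled HCC4006, 19.9-fold lower (log2 fold -4.32), which placed MUC1 at rank 3 of the genes that were lower. The probe set 207847_s_at read 167 on the array labelled HCC4006ER and 3526 on the array labelled HCC4006, 21.1-fold lower (log2 fold -4.40). The third MUC1 probe set, 211695_x_at, whose suffix marks probes that may bind other transcripts, read 113 on the array labelled HCC4006ER and 474 on the array labelled HCC4006, 4.19-fold lower (log2 fold -2.07). These probe sets disagreed by more than is usual, since the log2 folds of probe sets of 1 gene had a pooled SD of 0.27 over 5264 genes with 2 or more of them, a spread that leaves out variation between cultures and arrays. Averaged over all of them MUC1 was 12.1-fold lower. Next to MUC1 in rank were EPDR1, at 75.2 on the array labelled HCC4006ER against 1768 on the array labelled HCC4006 (at least 19.3-fold lower), and APCDD1L, at 141 for HCC4006ER against 1733 for HCC4006 (12.3-fold lower). Because the fold of EPDR1 is a bound, the order of MUC1 and EPDR1 is not settled.

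MUC20, a small membrane mucin that binds the docking site of the MET receptor, did not share this fall. Its probe sets above background read 974, 169 and 357 on the array labelled HCC4006ER and 1027, 205 and 405 on the array labelled HCC4006 (226622_at, 230043_at and 231941_s_at). Their log2 folds were -0.08, -0.28 and -0.18, all within the threshold, and the first turned to 0.06 when the arrays were scaled to equal medians. The fourth MUC20 probe set, 243774_at, was below background, at 28.9 on the array labelled HCC4006ER and 49.7 on the array labelled HCC4006.

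MUC4, which associates with ERBB2, MUC13, a mucin with EGF-like domains, and MUC16, the source of the CA125 antigen, gave no signal above background. The 6 MUC4 probe sets read 0.729 to 36.2 on the array labelled HCC4006ER and 7.32 to 43.2 on the array labelled HCC4006. MUC13 read 9.99 and 6.18 on the array labelled HCC4006ER and 22.1 and 21.1 on the array labelled HCC4006, and the single MUC16 probe set read 1.36 on the array labelled HCC4006ER and 10.1 on the array labelled HCC4006. Signals this low have no order, so no loss of these mucins could be measured. MUC5AC had 1 of its 4 probe sets above background, and only on the array labelled HCC4006ER: 217187_at read 118 there and 77.3 on the array labelled HCC4006, at least 1.22-fold higher. The other 3 MUC5AC probe sets were below background, at 3.06 to 13.8 on the array labelled HCC4006ER and 6.35 to 39.9 on the array labelled HCC4006.

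**Figure D2:**
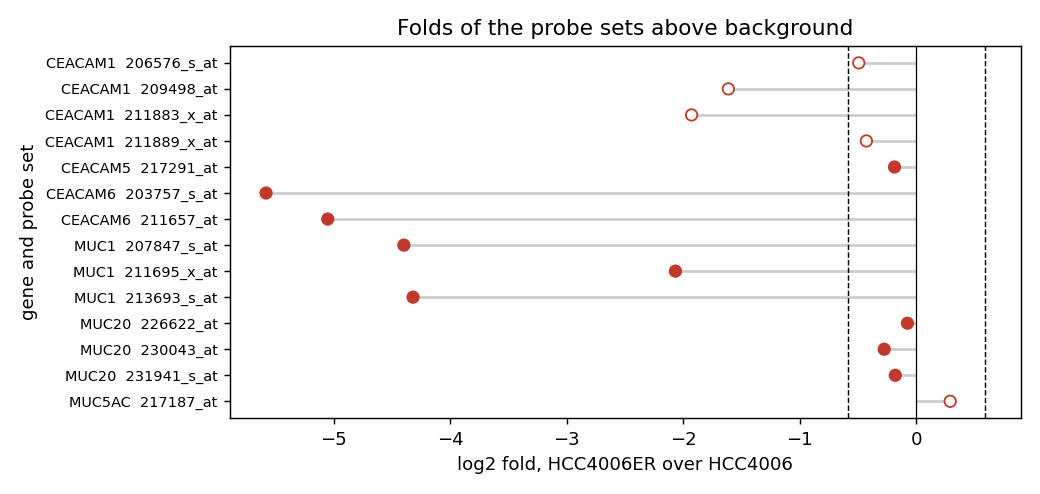
Log2 fold, HCC4006ER over HCC4006, of the 14 probe sets of the 10 genes that were above background, with filled points where both arrays passed and open points where a fold is a bound; dashed lines mark 1.5-fold. The CEACAM6 points lie at -5.58 and -5.05, the MUC1 points at -4.40 to -2.07, and those of CEACAM5, MUC20 and MUC5AC lie between the dashed lines.

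By probe set, 7 of these 14 were lower past 1.5-fold and 0 were higher, where 10.1% of all 21895 probe sets above background were lower and 9.25% higher. Probe sets of 1 gene share their RNA and are not independent. The plot of fold against signal for all genes shows CEACAM6 and MUC1 apart from the cloud of points, while CEACAM1 lies on the edge set by the background level.

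**Figure D3:**
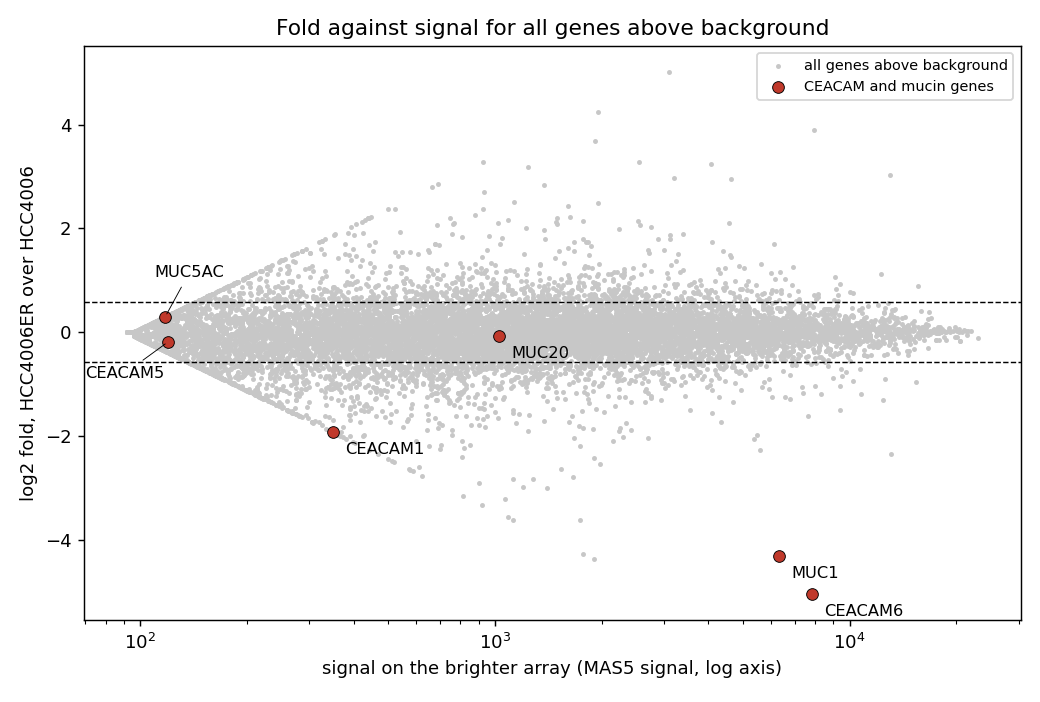
Log2 fold, HCC4006ER over HCC4006, against the signal on the brighter array (log axis) for the 11896 genes above background, with CEACAM and mucin genes in red and 1.5-fold dashed. CEACAM6 (-5.05) and MUC1 (-4.32) lie at the lower right, and the straight edges at the left are folds bounded by the background level.

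CEACAM1 and CEACAM6 are also made by neutrophils and other leukocytes, and mucins by other epithelia. Of 9 leukocyte markers measured, 0 were above background on the array labelled HCC4006ER and 1, CD3E, on the array labelled HCC4006, which read 58.6 on the array labelled HCC4006ER and 98.0 on the array labelled HCC4006. The summed signals of these 9 were 357 on the array labelled HCC4006ER and 474 on the array labelled HCC4006, and none was at 0. The fibroblast list (7 genes, sums 1155 on the array labelled HCC4006ER and 863 on the array labelled HCC4006) had COL1A1 alone above background, and the endothelial list (4 genes, sums 275 for HCC4006ER and 273 for HCC4006) PECAM1 alone. The neutrophil markers CSF3R, FCGR3B, ITGAM, MPO, ELANE and CXCR2 were below background on both arrays.

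Several PSG relatives of the CEACAMs were higher on the array labelled HCC4006ER, and no relative was lower past the threshold at its gene-level probe set. Of 14 other CEACAM and pregnancy-specific glycoprotein (PSG) genes on the array, 10 were above background, and 0 were lower, 6 higher and 4 within 1.5-fold, with a median log2 fold of 0.997 against -0.04 over all genes. The shares over all genes were 11.2% lower and 7.99% higher. All 6 that were higher were PSG genes, secreted members of the CEACAM family known from the placenta, whose genes lie near CEACAM1. PSG7 read 406 on the array labelled HCC4006ER and 85.5 on the array labelled HCC4006 (at least 4.23-fold higher), PSG6 810 for HCC4006ER and 227 for HCC4006 (3.57-fold higher) and PSG4 326 for HCC4006ER and 96.6 for HCC4006 (3.37-fold higher). PSG genes are near-identical copies and 11 of their 16 probe sets carry the suffix _x_ for probes that may cross-hybridize, so which PSG genes were higher is uncertain. Without these probe sets 1 gene of the list was higher past the threshold, and 4 were when suffixed probe sets were left out only for genes that had another. CEACAM3, a granulocyte receptor, read 149 on the array labelled HCC4006ER and 180 on the array labelled HCC4006, and CEACAM19 165 for HCC4006ER and 135 for HCC4006, both within the threshold.

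Other mucins were mostly not detected. Of 13 on the array, 2 were above background and both were within 1.5-fold, with a median log2 fold of -0.18. The intestinal membrane mucin MUC3A read 104 on the array labelled HCC4006ER and 150 on the array labelled HCC4006, 1.45-fold lower, and the oviductal glycoprotein OVGP1 read 144 for HCC4006ER and 127 for HCC4006, 1.13-fold higher. The gel-forming mucins MUC2, MUC5B and MUC6 were below background on both arrays.

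Enzymes that build O-linked sugars on mucins went in both directions. Of 21 above background, 8 were lower, 3 higher and 10 within 1.5-fold, with a median log2 fold of -0.05. The shares over all genes were 11.2% lower and 7.99% higher. GALNT14, one of the transferases that add the first sugar, read 175 on the array labelled HCC4006ER and 1404 on the array labelled HCC4006, 8.03-fold lower. ST3GAL1, which caps core 1 chains with sialic acid, read 36.5 on the array labelled HCC4006ER and 589 on the array labelled HCC4006, at least 6.43-fold lower. GCNT3, the mucin-type core 2 and core 4 branching enzyme, read 94.0 on the array labelled HCC4006ER and 326 on the array labelled HCC4006, 3.47-fold lower. The other 5 that were lower lay between 1.66- and 2.54-fold. In the other direction, the sialyltransferase ST6GALNAC5 read 1791 on the array labelled HCC4006ER and 738 on the array labelled HCC4006 (2.43-fold higher), and the first-sugar transferases GALNT5 (1834 for HCC4006ER and 772 for HCC4006, 2.37-fold) and GALNT7 (1.60-fold) were also higher. Members of the same transferase family thus moved in opposite directions.

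Genes for the GPI anchor, which CEACAM5, CEACAM6 and CEACAM7 need at the surface, were mostly within the threshold, and those past it were lower. Of 21 above background, 4 were lower, 0 higher and 17 within 1.5-fold, where 11.2% of all genes were lower and 7.99% higher. Their median log2 fold was -0.22. PIGQ, at 128 on the array labelled HCC4006ER and 232 on the array labelled HCC4006, was 1.81-fold lower, PIGP was 1.54-fold and PIGH 1.53-fold lower, and all of these encode subunits of the enzyme that starts the anchor. GPAA1, a subunit of the transamidase that attaches the finished anchor, was 1.66-fold lower, at 2230 on the array labelled HCC4006ER and 3695 on the array labelled HCC4006. These falls were all under 2-fold.

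Binding partners, cytoskeletal linkers and sheddases of the CEACAMs and mucins lay within the threshold at their gene-level probe sets. Of 23 above background, 0 were lower and 0 higher, where 11.2% of all genes were lower and 7.99% higher. Their median log2 fold was -0.01. The largest differences were those of the MUC1 tail ligand CTNNB1 (β-catenin, log2 fold -0.44), the kinase LYN (0.42) and the protease MMP14 (-0.34), which can shed MUC1. The receptors EGFR (-0.30), ERBB2 (-0.01), ERBB3 (0.12) and MET (0.26), the linker ezrin (EZR, 0.19), the mucin-binding lectin galectin-3 (LGALS3, 0.03) and the sheddase ADAM17 (-0.17) were also within it.

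Among factors known to control mucin or CEACAM genes, 14 were above background, of which 3 were lower, 1 higher and 10 within 1.5-fold. Over all genes 11.2% were lower and 7.99% higher, and with so few factors nothing is read from the difference. The median log2 fold of the 14 was -0.09. SPDEF, the ETS factor of goblet cells, read 491 on the array labelled HCC4006ER and 1622 on the array labelled HCC4006, 3.31-fold lower. Its epithelial relative EHF read 4703 on the array labelled HCC4006ER and 10792 on the array labelled HCC4006, 2.29-fold lower, and the pioneer factor FOXA1 was 1.54-fold lower. GATA6, an endoderm factor, was 2.10-fold higher, at 649 on the array labelled HCC4006ER and 309 on the array labelled HCC4006. STAT3 (log2 fold 0.29), ELF3 (-0.20) and KLF4 (-0.42) lay within the threshold, and USF1, whose protein binds CACGTG, was below background on both arrays while its partner USF2 had a log2 fold of -0.04.

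Airway secretory products, made by the same kinds of epithelium as the mucins, were mostly lower where they were above background. Of 7 above background, 6 were lower, 0 higher and 1 within 1.5-fold, with a median log2 fold of -1.37. The shares over all genes were 11.2% lower and 7.99% higher. TFF1 and BPIFA1 were above background only on the array labelled HCC4006. Among genes above background on both arrays, 4 of this list were lower. SLPI, the secretory leukocyte protease inhibitor, read 191 on the array labelled HCC4006ER and 758 on the array labelled HCC4006, 3.98-fold lower. The trefoil peptide TFF1 read 61.4 on the array labelled HCC4006ER and 361 on the array labelled HCC4006, at least 3.94-fold lower, and AGR2, the disulfide isomerase that folds mucins, read 1299 for HCC4006ER and 4347 for HCC4006, 3.35-fold lower. LCN2 (2.58-fold), WFDC2 (1.63-fold) and BPIFA1 (at least 1.62-fold) were also lower, and PIGR, the receptor that carries polymeric immunoglobulin across epithelium, had a log2 fold of -0.42. The remaining 13 genes of this list, including the secretoglobins, were below background on both arrays.

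**Figure D4:**
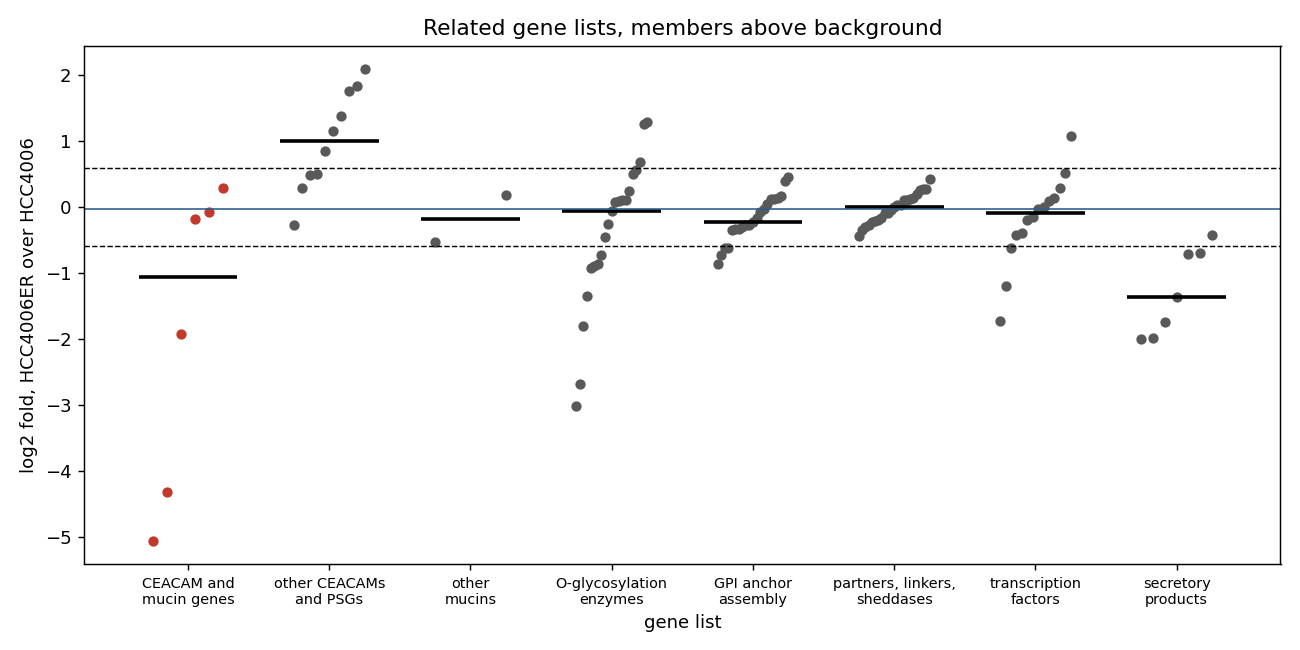
Log2 fold, HCC4006ER over HCC4006, of the members above background of the CEACAM and mucin genes (red) and of 7 related gene lists, 1 point per gene with the list median as a black bar; dashed lines mark 1.5-fold and the blue line the median of all genes, -0.04. The secretory products have their median at -1.37, the other CEACAMs and PSGs at 0.997, and the partners lie within the dashed lines.

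The genes beside MUC1 on chromosome 1 were lower too, whereas those beside CEACAM6 on chromosome 19 were not. These windows were chosen after the folds of MUC1 and CEACAM6 were known, and gene order was taken from RefSeq. Of the 20 genes above background nearest to MUC1, 10 on each side, 20 had a log2 fold below 0, 9 were lower past 1.5-fold and 0 were higher, with a median of -0.57 and a range of -1.46 to -0.16. SLC50A1, a sugar transporter, read 658 on the array labelled HCC4006ER and 1391 on the array labelled HCC4006, 2.11-fold lower. The matrix protein gene THBS3 read 114 on the array labelled HCC4006ER and 227 on the array labelled HCC4006, 1.99-fold lower, and the ephrin ligand EFNA1 read 885 for HCC4006ER and 1433 for HCC4006, 1.62-fold lower. With 50 genes on each side, 91 of 100 were below 0 and 34 were lower past 1.5-fold, with a median of -0.44. Over all 1145 genes of chromosome 1 above background apart from MUC1, these windows included, 718 were below 0, 159 were lower and 73 higher, with a median of -0.14. The fall of MUC1 itself, -4.32, was larger than that of any gene in these windows or of any other gene of chromosome 1 above background, where the lowest log2 fold was -3.57. Since MUC1 was picked for the size of its fall, nothing is read from this order.

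Around CEACAM6, 8 of the nearest 20 genes above background were below 0, and 0 were lower or higher past 1.5-fold, with a median of 0.02 and a range of -0.28 to 0.44. The ribosomal protein gene RPS19, close to CEACAM6, read 21616 on the array labelled HCC4006ER and 21386 on the array labelled HCC4006, a log2 fold of 0.02. Over all 786 genes of chromosome 19 above background apart from CEACAM6, this window included, the median was -0.03, with 426 below 0, 61 lower and 35 higher. CEACAM5 lies directly before CEACAM6 in this order, and CEACAM1 lies farther along, next to the PSG genes that were higher. Whether the number of gene copies differed between the lines at either place was not tested.

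**Figure D5:**
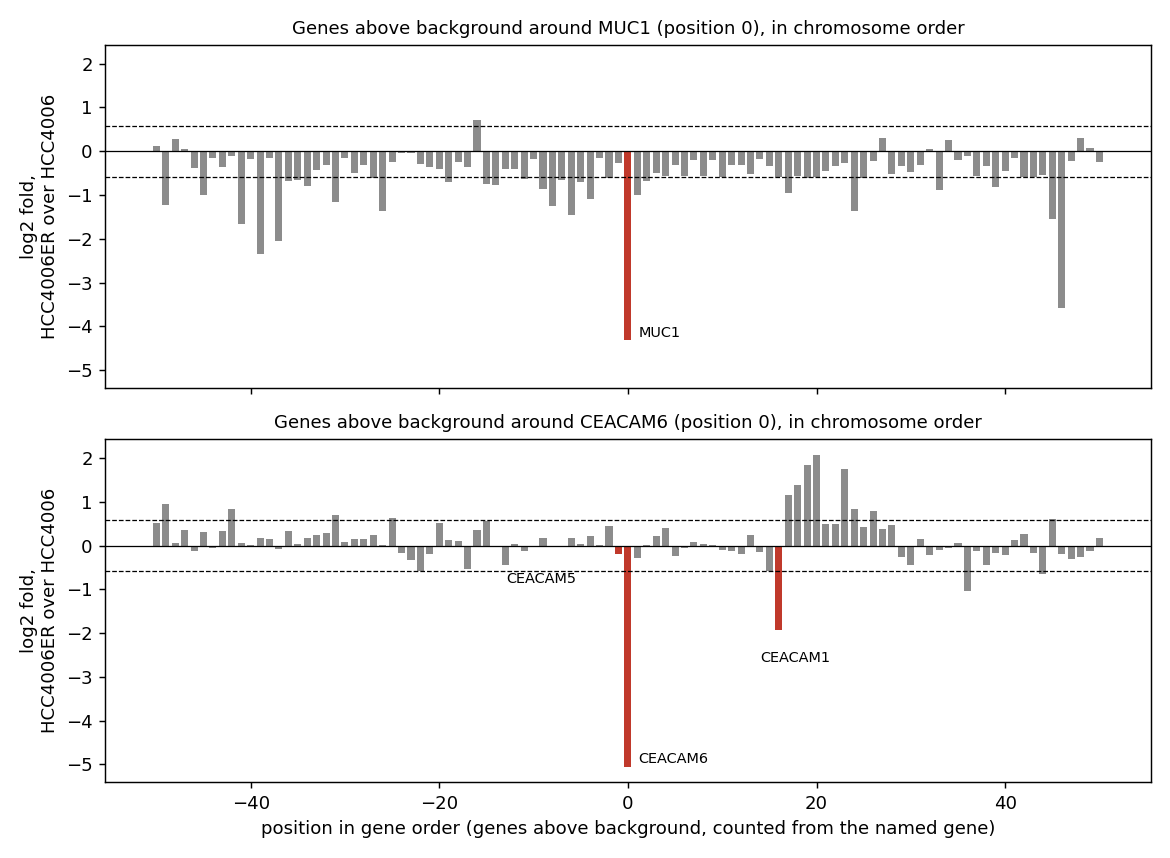
Log2 fold, HCC4006ER over HCC4006, of genes above background in chromosome order, 50 on each side of MUC1 (upper) and of CEACAM6 (lower), with CEACAM and mucin genes in red and 1.5-fold dashed. Nearly all bars around MUC1 point down (91 of 100), while those around CEACAM6 go both ways (40 of 100 down), with the PSG genes as the tall upward bars to the right of CEACAM1.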

How the data were processed

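Total RNA of HCC4006ER and HCC4006 cells was hybridized to 1 Affymetrix array per cell line, and samples were grouped by the cell line in their labels. The deposited values were linear signal intensities for 54675 probe sets, made by the authors with MAS5 (per the labels, GCOS 1.4), without detection calls. Gene names came from the platform annotation, in which 41097 probe sets had 1 gene symbol, updated through a RefSeq table of GRCh38.p14. No coordinates of probe sets were used, since no build belongs to the signals. A gene was read from its probe set of highest mean log2 signal, and the background, the bound on dim signals and the 1.5-fold threshold, which the study's methods use, were as given in the report. No p-value was computed, and with 1 array per line the precision is limited by their number. The genes, the lists and the rules were chosen with earlier results of these data known.

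The genes named were the 10 genes, their neighbours in rank, up to 3 members of each list with the largest folds, members past 1.5-fold against their list's median, and the markers. Other list members and the chromosome neighbours were named after their values were seen, and CACGTG was added as a motif after the promoters were read. The gene-level calculation was tested on simulated signals. Promoters were aligned globally with Biopython 1.88, and the rest used matplotlib 3.10.9, scipy 1.17.1, pandas 2.3.3 and numpy 2.4.6 under Python 3.11.15. Alternatives to the scaling, the probe set, the background, the filter and the threshold were tried. Genes with no probe set of 1 symbol were not analysed here.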

Additional observations from a re-analysis of the deposited data

How the results depend on the processing

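Over 14 alternative settings the array labelled HCC4006ER had 30.1- to 47.8-fold less CEACAM6 signal and 12.1- to 21.1-fold less MUC1 signal. The bound on CEACAM1 lay between log2 folds of -2.31 and -0.86, and its measured ratio, 5.59-fold lower, rests on a signal below background. Each passed 1.5-fold wherever it had a value. MUC20 ranged from -0.33 to 0.06 on the log2 scale and so had no settled sign. Scaling both arrays to equal medians moved the median log2 fold of all genes to 0.10, against -0.04 as reported.

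The count of genes lower was 3 in all settings except that it was 2 with both arrays above background, where CEACAM1 had no value, and 5 on the measured ratio over every gene, background or not. MUC5AC made 1 gene higher, in place of 0, on the measured ratio, with background at the 90th percentile and over every gene. The count within 1.5-fold, 3 as reported, was 1 with the mean over all probe sets, with background at the highest receptor probe set (176 on the array labelled HCC4006ER and 147 on the array labelled HCC4006) and with olfactory pseudogenes in the background, a setting chosen after seeing the data. It was 0 with the probe set of the largest fold. The median log2 fold of the genes above background, -1.06 as reported, was -2.23 with the mean over probe sets, -4.40 with the largest fold, -1.34 on the measured ratio, -2.65 with the highest receptor, -2.25 with both arrays above background, -0.68 over every gene and -2.74 with pseudogenes. Of 287 list values 27 moved by more than their limit. Without probe sets named _x_, 1 of the other CEACAM and PSG genes was higher, and 4 were when probe sets named _x_ or _s_ were left out only for genes that had another. With the probe set of the largest fold 1 gene of that list was lower. With equal medians 5 of the O-glycosylation enzymes were higher, 2 of the GPI genes were lower and 5 of the 20 genes around MUC1 were lower, and at a 2-fold threshold these lists had 4 enzymes and 0 GPI genes lower. The median of the other mucins turned to 0.18 under 4 choices of probe set, which is the log2 fold of OVGP1 itself. No paired analysis was possible because each cell line had 1 array, and no replicate could be left out. Signals below background set no limit on a change.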
